A study of Mus musculus with 6 samples.

Results

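The genes described here are 10 that carry fatty acids from circulating lipoproteins into the adipocyte and hand them on inside the cell: *Lpl*, *Gpihbp1*, *Angptl4*, *Vldlr*, *Cd36*, *Slc27a1*, *Slc27a4*, *Acsl1*, *Fabp4* and *Fabp5*. They were taken by gene symbol from a table of 37384 symbols, and all 10 were among the 15674 genes with enough reads to be tested. RNA came from floated adipocytes of inguinal subcutaneous white adipose tissue (scWAT) of male mice at postnatal day 7, with 3 libraries for each genotype and the cells of 4 mice pooled per library. The control group, L1L2-FF, carries floxed *Lats1* and *Lats2* alleles (*Lats1* f/f *Lats2* f/f) and no Cre. Mice of the other group, L1L2-AKO, carry the same floxed alleles and *Adipoq*-Cre, which recombines them where the adiponectin promoter is active. The *Lats1* f/f line was of C57BL/6-129-CD1 and the *Lats2* f/f line of C57BL/6-129 origin, and the groups were littermates. LATS1 and LATS2 are the kinases of the Hippo pathway that hold back the coactivators YAP and TAZ. The comparison asked how the adipocytes of this fat pad differ when both kinases are deleted in them.

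White adipocytes obtain most of their stored fatty acids from triglyceride-rich lipoproteins. Lipoprotein lipase, made by adipocytes, is carried by GPIHBP1 across the capillary endothelium to the vessel lumen, where it releases fatty acids from triglyceride. ANGPTL4 inactivates the lipase, and the VLDL receptor binds the lipoproteins themselves. CD36 and the transport proteins FATP1 and FATP4 promote entry into the cell, acyl-CoA synthetases trap the fatty acid as acyl-CoA, and the small binding proteins FABP4 and FABP5 ferry it through the cytosol. Several of these genes are not particular to adipocytes: capillary endothelium also uses *Cd36*, *Fabp4*, *Fabp5* and *Vldlr*, and macrophages also use *Lpl*, *Cd36*, *Fabp4* and *Fabp5*.

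Total counts ranged from 30548473 to 32107917 per library, and the highest was 1.05 times the lowest. Levels are given as CPM, counts scaled to a fixed library total after TMM normalization. The targeted gene *Lats1* was lower in the libraries labelled L1L2-AKO (82.9 ± 9.90 against 40.2 ± 1.16 CPM, SD, n = 3 each), whereas *Lats2* was higher (76.4 ± 8.68 against 119 ± 20.6), with log2 fold changes of -1.04 and 0.64 (adjusted p = 0.00131 and 0.0278 by the edgeR test described below). The *Lats2* call was lost without L1L2-FF replicate 1 or 3 or L1L2-AKO replicate 2 or 3, where the adjusted p-values of edgeR ran from 0.0651 to 0.104. Its level went against the label, although a count per gene mixes the floxed exons with those left in place, and 41.2% of the 50-base stretches of *Lats2* also occur in the annotated gene *Gm49361*. For this reason every direction below is given for the libraries labelled L1L2-AKO. All 12 markers of mature adipocytes passed the filter on low counts. Their summed level was 15999 to 17749 CPM in L1L2-FF against 7813 to 10741 under the other label, 6 of the 12 being lower and none higher by the test used below. A large part of that gap was *Cfd*, at 3718 ± 1243 against 211 ± 52.5 CPM. By fitted change 10 of the 12 were lower and 2 higher, and *Cidec* (1090 ± 105 against 1085 ± 209 CPM) and *Plin4* (2462 ± 583 against 2463 ± 527 CPM) stayed level. Of 14 macrophage markers, 12 were higher and none lower, with a summed level of 281 to 544 against 1017 to 1127, and without L1L2-FF replicate 1 the number higher was 7. Among 14 markers of capillary endothelium, 1 was higher and none lower, and the summed levels overlapped (2658 to 3479 against 1855 to 3503). That single call was lost without L1L2-FF replicate 1 or 3 or L1L2-AKO replicate 2 or 3, and with replicate number as a block 0 were higher and 3 lower. In such bulk libraries, fewer cells of a type and less RNA per cell cannot be told apart, and the part of these markers in the changes below was not tested.

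Of the 10 uptake and trafficking genes, 3 differed between the genotypes at an adjusted p-value of edgeR below 0.05, 2 being lower and 1 higher under the label L1L2-AKO. *Acsl1* and *Slc27a1*, whose products form acyl-CoA, fell to 0.344 and 0.366 of the control level, and the lipase inhibitor *Angptl4* rose 1.79-fold. The other 7 genes, among them the lipase itself, *Cd36* and both fatty acid binding proteins, did not pass. For comparison, 16.5% of all tested genes passed the same threshold, 7.18% lower and 9.28% higher. Without overlap between the 3 libraries of each label were 5 of the 10 (*Acsl1*, *Slc27a1* and *Cd36* lower, *Angptl4* and *Lpl* higher), where 36.4% of all tested genes had no overlap (18.4% lower and 18% higher). The median log2 fold change of the 10 genes was -0.22, against -0.02 over all tested genes. The values of replicates 1, 2 and 3 are given in that order, and changes come from the quasi-likelihood test of edgeR with Benjamini-Hochberg adjustment over all tested genes.

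**Figure D1:**
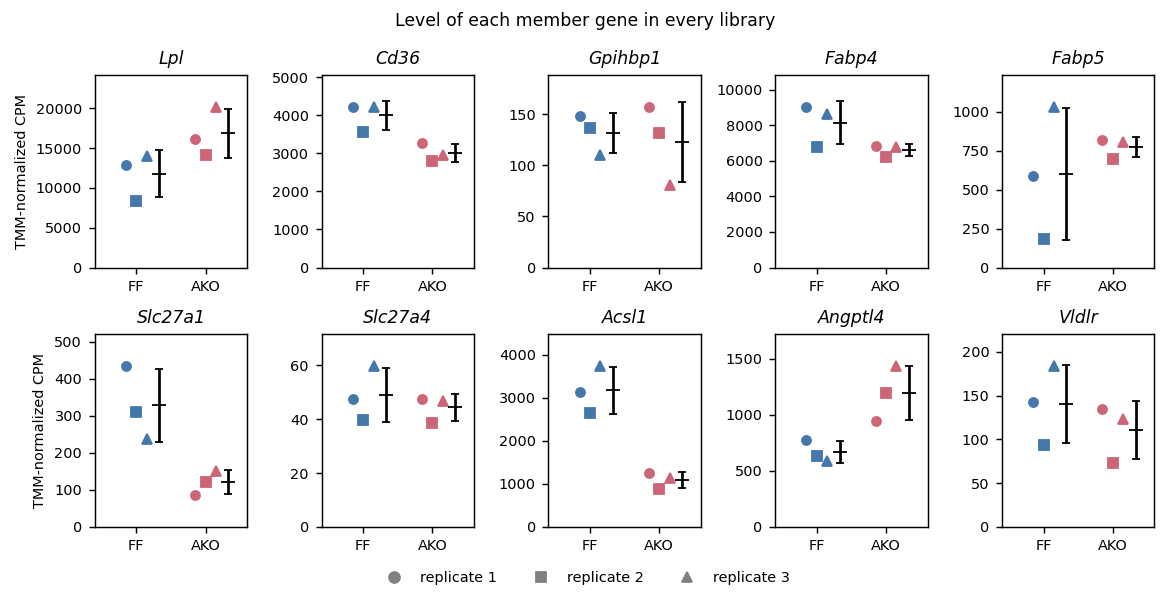
Level of each of the 10 genes in every library (vertical axes, TMM-normalized CPM from 0), with the 3 L1L2-FF libraries in blue, the 3 libraries labelled L1L2-AKO in red, a marker shape for each replicate number, and the mean with its SD in black. For *Acsl1* the red points lie between 886 and 1246 and the blue between 2635 and 3733, whereas for *Gpihbp1*, *Fabp4*, *Fabp5*, *Slc27a4* and *Vldlr* red and blue overlap.

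Per length of exon, the genes spanned a wide range. Counts were divided by exon length and scaled to the same total per library (TPM), so that genes can be set roughly beside each other. Exon length here joins the exons of all annotated transcripts of a gene, so it can exceed the length of the main mRNA. For *Fabp4* it is 4489 bases, the whole gene from start to end. Order and ratios between genes are therefore approximate, whereas the change of a ratio of single genes between the labels does not depend on it. In L1L2-FF the order was *Fabp4* (5252 ± 541 TPM, SD, n = 3), *Lpl* (3224 ± 659), *Cd36* (3223 ± 143), *Acsl1* (872 ± 109), *Angptl4* (546 ± 82.7), *Fabp5* (479 ± 323), *Slc27a1* (163 ± 49.1), *Gpihbp1* (150.3 ± 25.9), *Vldlr* (40.0 ± 11.0) and *Slc27a4* (32.1 ± 5.05). The library ranges of neighbours in that order overlapped between *Lpl* and *Cd36*, *Angptl4* and *Fabp5*, *Fabp5* and *Slc27a1*, *Slc27a1* and *Gpihbp1*, and *Vldlr* and *Slc27a4*. In the libraries labelled L1L2-AKO the order was *Lpl* (4918 ± 644 TPM), *Fabp4* (4532 ± 429), *Cd36* (2586 ± 372), *Angptl4* (1027 ± 132), *Fabp5* (669 ± 80.4), *Acsl1* (321 ± 66.4), *Gpihbp1* (151 ± 57.9), *Slc27a1* (62.4 ± 12.4), *Vldlr* (33.9 ± 11.0) and *Slc27a4* (30.97 ± 4.31). Here only *Lpl* and *Fabp4*, and *Vldlr* and *Slc27a4*, overlapped as neighbours. *Acsl1* thus stood in place 4 of 10 in the controls and in place 6 of 10 in the libraries labelled L1L2-AKO. Among all genes ranked by TPM, *Acsl1* went from rank 107 to rank 381, *Slc27a1* from 784 to 2332 and *Angptl4* from 191 to 90.
Together the 10 genes took 2.41 to 3.17% of all counts in L1L2-FF and 2.69 to 3.11% in the libraries labelled L1L2-AKO, so their summed share overlapped between the genotypes. Most of it came from *Lpl*, at 0.889 to 1.35% of counts in L1L2-FF and 1.45 to 1.86% under the other label, and from *Fabp4*, at 0.720 to 0.901% and 0.627 to 0.708%.

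*Acsl1* encodes the main long-chain acyl-CoA synthetase of adipocytes, which activates fatty acids and thereby holds them in the cell. In GENCODE M21, on mm10 as for all genes here, the gene is ENSMUSG00000018796.13 (chr8:46471037-46536051, plus strand). It had 3139, 2635 and 3733 CPM in L1L2-FF against 1246, 886 and 1139 CPM under the label L1L2-AKO. The lowest control library had more than any library of the other label. On the log2 scale *Acsl1* fell by 1.54 (SE 0.214, adjusted p = 0.00294), with a 95% interval of the log2 fold change from -2.03 to -1.05. Over the 6 fits that each omit a library, its log2 fold change ran from -1.66 to -1.41, with adjusted p-values of at most 0.0178.

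*Slc27a1* encodes FATP1, a transport protein with acyl-CoA synthetase activity that insulin brings to the plasma membrane of adipocytes. The gene is ENSMUSG00000031808.7 (chr8:71568882-71587302, plus strand). Its levels were 434, 312 and 238 CPM in L1L2-FF against 86.4, 122 and 151 CPM under the label L1L2-AKO. The groups did not overlap, although both were spread, with the highest library at 1.82 times the lowest in L1L2-FF and 1.75 times under the other label. On the log2 scale it fell by 1.45 (SE 0.267, adjusted p = 0.00937, 95% interval from -2.07 to -0.84). The highest adjusted p-value with a library left out was 0.0448, without L1L2-AKO replicate 2.

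Because *Acsl1* and *Slc27a1* fell together, the 250 bases before their start sites are shown. They come from RefSeq on GRCm38.p6, the sequence of mm10, and are written in the direction of the gene, with GGAATG, the core bound by the TEAD partners of YAP and TAZ, in capitals. The *Acsl1* stretch is chr8:46470787-46471036 on the plus strand and the *Slc27a1* stretch is chr8:71568621-71568870 on the plus strand, and neither overlaps an annotated exon of its gene.
Acsl1: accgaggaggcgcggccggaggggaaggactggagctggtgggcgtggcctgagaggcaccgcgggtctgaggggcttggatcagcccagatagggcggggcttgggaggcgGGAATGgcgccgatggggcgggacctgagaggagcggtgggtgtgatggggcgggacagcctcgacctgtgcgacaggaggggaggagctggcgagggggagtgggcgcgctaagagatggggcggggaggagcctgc
Slc27a1: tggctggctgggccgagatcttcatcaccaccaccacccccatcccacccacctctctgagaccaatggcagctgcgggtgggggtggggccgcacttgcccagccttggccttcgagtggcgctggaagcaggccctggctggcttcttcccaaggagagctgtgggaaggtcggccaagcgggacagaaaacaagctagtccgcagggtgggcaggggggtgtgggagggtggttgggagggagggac
The *Acsl1* stretch holds GGAATG once, 138 bases before the start site, and the *Slc27a1* stretch holds none. Of the further RefSeq start sites, the second of *Slc27a1* has GGAATG 212 bases upstream, and neither the third of *Slc27a1* nor the second of *Acsl1* has one in its 250 bases. Of the 250 bases before that second *Slc27a1* start, 102 lie in annotated exons of the gene, and the start is 82 bases from the nearest GENCODE start. On either strand, 12.6% of all 32851 RefSeq promoter stretches of this length hold GGAATG. Neither AGGTCA, the core of PPAR and RXR sites, nor its direct repeat with 1 base between the copies (DR1, up to 2 mismatches in 12 letters) occurred in any window of *Acsl1* or *Slc27a1*, where 14.0% and 3.24% of all promoter stretches hold one. A match is only a run of letters in the window, and its absence says nothing about the factor. RefSeq stretches were matched for 5 of the 10 genes, and among the other 3 the one of *Cd36* held AGGTCA 228 bases and a DR1 match with 2 mismatches 63 bases before its start.

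*Angptl4* encodes a secreted inhibitor of lipoprotein lipase that is made by adipocytes and rises in fasting. The gene is ENSMUSG00000002289.16 (chr17:33773750-33781830, minus strand). It had 777, 635 and 585 CPM in L1L2-FF against 948, 1198 and 1435 CPM under the label L1L2-AKO. Every library of that label was above every control library. *Angptl4* rose 1.79-fold, with a log2 fold change at 0.84 (SE 0.199, adjusted p = 0.0255, 95% interval from 0.38 to 1.30). The direction was the same in all alternatives run, but the call was not. Its adjusted p-value was 0.0509 on omitting L1L2-FF replicate 1, 0.0649 for L1L2-FF replicate 3, 0.0827 for L1L2-AKO replicate 2, 0.0807 for L1L2-AKO replicate 3, and 0.0533 with replicate number as a block.

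*Lpl*, the lipase that *Angptl4* restrains, is ENSMUSG00000015568.16 (chr8:68880491-68907448, plus strand). It was the most abundant of the 10 by count in every library, with 12881, 8400.3 and 13956 CPM in L1L2-FF against 16187, 14180 and 20189 CPM under the label L1L2-AKO. The lowest of the latter was just above the highest control, and L1L2-FF replicate 2 was well below the other controls. The log2 fold change was 0.52 (SE 0.290, adjusted p = 0.272), with a 95% interval from -0.15 to 1.19. In folds, the interval runs from 0.904 to 2.28. Macrophage markers were higher in the same libraries (above), and their part in the level of *Lpl* was not tested.

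*Gpihbp1* encodes the protein of capillary endothelial cells that binds the lipase and carries it to the vessel lumen. The gene is ENSMUSG00000022579.10 (chr15:75596628-75599481, plus strand). Levels were 149, 136 and 111 CPM in L1L2-FF against 158, 131 and 80.5 CPM under the label L1L2-AKO. The highest and the lowest library carried the same label. Its log2 fold change was -0.10 (SE 0.237, adjusted p = 0.825, 95% interval from -0.65 to 0.45), and the sign turned, to 0.14, without L1L2-AKO replicate 3. Against the summed level of the 14 endothelial markers per length, *Gpihbp1* held a ratio of 0.0592, 0.0590 and 0.0572 in L1L2-FF against 0.0645, 0.0554 and 0.0442 under the label L1L2-AKO. With this sum, the controls kept nearly the same ratio while the other label was spread around it (difference of the mean log2 ratio -0.11, two-sided exact permutation p = 0.7). The sum leans on *Rgcc*, the 1 endothelial marker called higher, with 605 ± 94.2 TPM in L1L2-FF and 1017 ± 152 under the label L1L2-AKO. In L1L2-AKO replicate 3 *Rgcc* had 1092 TPM, and *Cdh5*, the next marker, had 253. A ratio without *Rgcc* was not taken, so the spread and sign given here hold for the full list alone.

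*Vldlr*, a receptor for triglyceride-rich lipoproteins that carry apolipoprotein E, is ENSMUSG00000024924.14 (chr19:27216484-27254231, plus strand). It had 143, 94.2 and 184 CPM in L1L2-FF against 135, 73.0 and 124 CPM under the label L1L2-AKO. In both groups replicate 2 was the lowest, and the groups overlapped. The log2 fold change was -0.34 (SE 0.288, adjusted p = 0.482, 95% interval from -1.004 to 0.32).

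*Cd36*, the fatty acid translocase of the plasma membrane, is ENSMUSG00000002944.15 (chr5:17781690-17888801, minus strand). Its levels were 4209, 3566 and 4225 CPM in L1L2-FF against 3271, 2798 and 2955 CPM under the label L1L2-AKO. The spread was narrow in both groups, and the groups did not overlap. Its log2 fold change was -0.41 (SE 0.182), which did not pass in edgeR's test (adjusted p = 0.169, 95% interval from -0.83 to 0.01). DESeq2's Wald test on the same counts gave an adjusted p of 0.0233, and over all 15 alternatives the adjusted p-value ranged from that value to 0.391.

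*Slc27a4* encodes FATP4, the other transport protein of this class in the list, and is ENSMUSG00000059316.2 (chr2:29802634-29817522, plus strand). It was the least abundant of the 10 by count in every library, with 47.7, 39.8 and 59.8 CPM in L1L2-FF against 47.6, 38.7 and 46.9 CPM under the label L1L2-AKO. The groups overlapped almost fully. The log2 fold change was -0.14 (SE 0.166, adjusted p = 0.616, 95% interval from -0.53 to 0.24), and it was 0.02 without L1L2-FF replicate 3. In L1L2-FF, *Slc27a1* had 6.89, 5.92 and 3.02 times the level of *Slc27a4* per length of exon. In the libraries labelled L1L2-AKO it had 1.37, 2.39 and 2.44 times that level. This ratio does not depend on library scaling, and all 3 libraries of that label were below all controls (difference of the mean log2 ratio -1.31, two-sided exact permutation p = 0.1, the smallest that 3 libraries against 3 allow, and 0.25 adjusted over the 5 ratios tested).

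*Fabp4*, the adipocyte fatty acid binding protein also known as aP2, is ENSMUSG00000062515.3 (chr3:10204088-10208576, minus strand). It had 9055, 6797 and 8639 CPM in L1L2-FF against 6826, 6211 and 6791 CPM under the label L1L2-AKO. Only L1L2-FF replicate 2 lay within the range of the other label. Its log2 fold change was -0.30 (SE 0.214, adjusted p = 0.389, 95% interval from -0.80 to 0.19). A fall to below 0.575 of the control level lies outside that interval.
*Fabp5*, the epidermal-type binding protein that adipocytes also make, is ENSMUSG00000027533.10 (chr3:10012548-10016607, plus strand). In L1L2-FF it was the most variable of the 10 genes (CV 70.4%) and under the other label one of the less variable (CV 8.51%), with 589, 185 and 1033 CPM in L1L2-FF against 820, 699 and 805 CPM under the label L1L2-AKO. The controls spanned 5.57-fold and the other label 1.17-fold. The log2 fold change was 0.36 (SE 0.496, adjusted p = 0.679, 95% interval from -0.78 to 1.51) and turned to -0.07 without L1L2-FF replicate 2. Of the 50-base stretches of *Fabp5*, 5.48% occur in transcripts of other genes, mostly *Gm6166*, so a small part of its reads may be split. Of 8 keratinocyte markers, 5 were too low to be tested, among them *Krt5* and *Krt14*, and the list summed to at most 10.5 CPM in a library.
The ratio of *Fabp4* to *Fabp5* per length was 12.2, 29.1 and 6.64 in L1L2-FF against 6.61, 7.06 and 6.70 under the label L1L2-AKO. The label L1L2-AKO thus showed a tight ratio at the low end of the control range (difference of the mean log2 ratio -0.97, two-sided exact permutation p = 0.3). Without L1L2-FF replicate 2 the difference was -0.41.

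**Figure D2:**
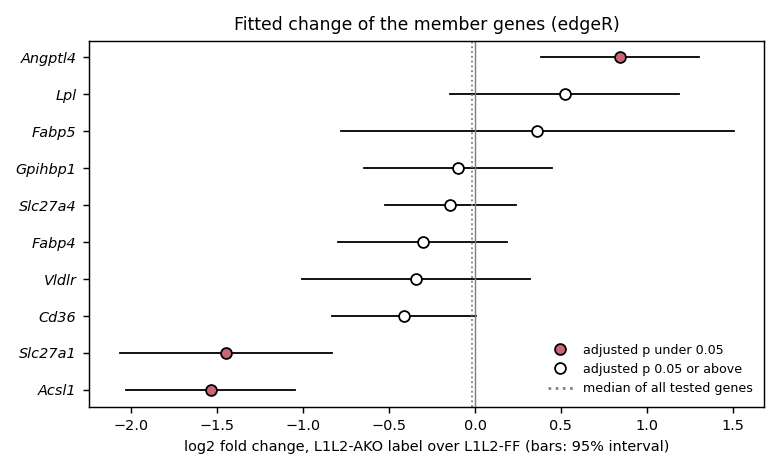
Fitted log2 fold change of the 10 genes, libraries labelled L1L2-AKO over L1L2-FF (horizontal axis), with the 95% interval as a bar, filled points where edgeR gave an adjusted p-value below 0.05, open points for the rest, and the median of all tested genes as a dotted line. *Acsl1* (-1.54) and *Slc27a1* (-1.45) lie to the left and *Angptl4* (0.84) to the right, while the bars of the other 7 genes reach across 0.

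Replicates did not deviate evenly over the 10 genes. In L1L2-FF, replicate 2 had the lowest CPM for 7 of the 10 genes and the highest for 0, and replicate 3 had the highest for 6. Among the libraries labelled L1L2-AKO, replicate 2 was again the lowest for 7 genes, and replicate 1 was the highest for 7. Such counts were not taken over all tested genes, so they cannot show whether this is particular to the 10 genes. Without L1L2-FF replicate 2, the calls on the 10 genes were 2 lower and 1 higher, the same numbers as with it, and without L1L2-AKO replicate 2 they were 2 lower and 0 higher.

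Ratios within a library were also taken for the lipase and its inhibitor and for the acyl-CoA synthetases. *Angptl4* had 0.179, 0.224 and 0.124 times the level of *Lpl* per length in L1L2-FF, and 0.173, 0.250 and 0.210 times in the libraries labelled L1L2-AKO. These ranges overlapped (difference of the mean log2 ratio 0.29, two-sided exact permutation p = 0.5). *Acsl1* had 13.5, 12.1 and 13.4 times the summed level of *Acsl3*, *Acsl4*, *Acsl5* and *Acsl6* in L1L2-FF, and 4.31, 3.17 and 4.50 times in the libraries labelled L1L2-AKO. *Acsl1* thus remained the most abundant of the family in each library while its lead was smaller under that label in 3 of 3 libraries (difference of the mean log2 ratio -1.72, two-sided exact permutation p = 0.1, adjusted over the 5 ratios 0.25).

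**Figure D3:**
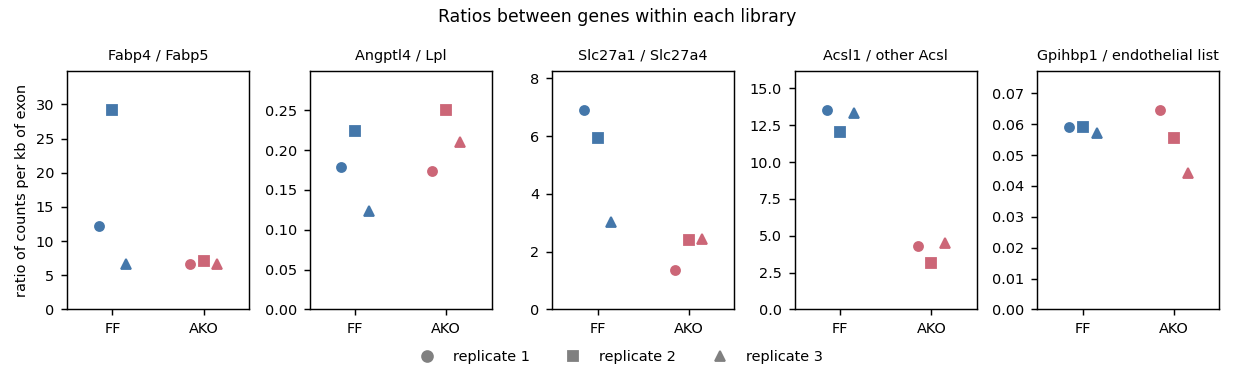
Ratios of counts per kilobase of exon within each library (vertical axes from 0), with L1L2-FF in blue, the libraries labelled L1L2-AKO in red, and a marker shape for each replicate number. *Acsl1* against the other *Acsl* genes and *Slc27a1* against *Slc27a4* separate the labels, whereas the L1L2-FF points of *Fabp4* against *Fabp5* run from 6.64 to 29.1 and the red points lie between 6.61 and 7.06.

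The further genes of fatty acid uptake were read from 7 lists of 65 genes, of which 56 had enough counts to be tested. By edgeR's test, 10 of these were lower and 7 higher under the label L1L2-AKO, and 39 did not pass, with a median log2 fold change of -0.09 against -0.02 over all tested genes. Of all tested genes, 16.5% passed the same threshold, 7.18% lower and 9.28% higher. The count of each list below is to be read beside these shares. The number of calls in the 7 lists fell from 17 to 7 on omitting L1L2-FF replicate 1, to 8 for L1L2-AKO replicate 2, to 10 for L1L2-AKO replicate 3 and to 11 for L1L2-AKO replicate 1. The share called over all tested genes fell in these fits too, to 8.05%, 7.97%, 8.54% and 12.9% in the same order. A call lost with a library left out thus partly goes with fewer calls over all genes. Among the genes named from the lists, *Pcsk5*, *Olr1*, *Msr1*, *Ffar4* and *Rxrg* kept their calls in all 6 such fits.

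Genes that make, move or modify the lipase went in both directions, 3 higher and 3 lower of 13 tested (median log2 fold change -0.20). The largest rise was that of *Pcsk5*, a proprotein convertase, from 20.7 ± 8.97 to 216 ± 66.8 CPM (SD, n = 3 each), with a log2 fold change at 3.38 (adjusted p = 0.000978). *Lipg*, the endothelial lipase, rose by a log2 fold change of 1.50 (adjusted p = 0.0307) from a low level of 4.15 ± 1.60 CPM to 11.7 ± 5.07 CPM. *Sel1l*, which supports maturation of the lipase in the endoplasmic reticulum, rose from 159 ± 6.71 to 250.1 ± 31.7 CPM (log2 fold change 0.66, adjusted p = 0.0126). The apolipoproteins moved the other way: *Apoe* fell from 2683 ± 507 to 1474 ± 373 CPM (adjusted p = 0.0475), *Apoc2*, the cofactor of the lipase, from 2.83 ± 1.15 to 0.819 ± 0.173 CPM (adjusted p = 0.0199), and *Apoc3*, which counts among its inhibitors, from 0.784 ± 0.217 to 0.112 ± 0.115 CPM (adjusted p = 0.0234). The call on *Apoe* was lost whichever library was left out and with at least 10 counts required in every library, that on *Apoc2* in 5 of the 6 fits (all but the one without L1L2-FF replicate 2), that on *Apoc3* without L1L2-FF replicate 1 or 3 or L1L2-AKO replicate 1 or 2, and that on *Lipg* without L1L2-FF replicate 1 or 2, L1L2-AKO replicate 1 or 2, or with the block. *Sel1l* lost its call without L1L2-FF replicate 1, where 1 gene of the list passed. *Apoc3* had 18 to 31 counts per library in L1L2-FF and 1 to 7 under the other label. *Apoc3* was thus not tested with at least 10 counts required in every library, where 1 gene of the list was lower. *Sort1*, a sorting receptor, was at a log2 fold change of -0.43 and did not pass (adjusted p = 0.141).

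Among the lipoprotein receptors, 2 of 8 tested genes were higher and none was lower (1 lower without L1L2-FF replicate 2), with a median log2 fold change of 0.73. These were the scavenger receptors *Olr1* (0.527 ± 0.123 to 3.78 ± 1.36 CPM, log2 fold change 2.83, adjusted p = 0.00227) and *Msr1* (6.10 ± 0.847 to 19.1 ± 2.86 CPM, log2 fold change 1.65, adjusted p = 0.00113). *Msr1* is a gene of macrophages, whose markers were higher in the same libraries, and the part of those cells was not tested. *Lrp1* (log2 fold change 0.47, adjusted p = 0.296) and *Scarb1* (-0.42, adjusted p = 0.136) did not pass.

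Of the remaining members of the transport, synthetase and binding protein families, few were as abundant as the 10 genes. *Slc27a2* fell from 0.895 ± 0.173 to 0.212 ± 0.125 CPM (log2 fold change -2.05, adjusted p = 0.0250), at 3 to 34 counts per library. It lost its call in 4 of the 6 fits with a library left out (L1L2-FF replicates 1 and 2, L1L2-AKO replicates 1 and 3). With at least 10 counts required in every library *Slc27a2* was not tested. *Slc27a3* and *Slc27a6* had log2 fold changes of -0.33 and 0.89 and did not pass, and the median of these 3 genes was -0.33. *Acsl5*, a synthetase of mitochondria and endoplasmic reticulum, rose slightly but evenly from 48.7 ± 1.44 to 65.9 ± 3.02 CPM (log2 fold change 0.44, adjusted p = 0.0204) but did not pass with library size alone or without L1L2-FF replicate 1, L1L2-AKO replicate 1 or L1L2-AKO replicate 2. *Acsl3* (-0.41) and *Acsl4* (0.14) did not pass and the median of the 4 tested was 0.05. In the binding protein family, 1 of 5 tested genes changed. This was *Pmp2*, the binding protein of myelin, which fell from 8.82 ± 3.85 to 2.24 ± 0.878 CPM (log2 fold change -1.98, adjusted p = 0.0160). It lost the call without L1L2-AKO replicate 3. The gene lies 20.2 kilobases from *Fabp4* in a cluster on chromosome 3 that also holds *Fabp9*, *Fabp12* and *Fabp5*. Schwann cell markers were lower in the same libraries, 4 of 8 by the test (1 of 8 without L1L2-FF replicate 2 or 3, or without L1L2-AKO replicate 1 or 3) and none higher, with summed levels of 473 to 1221 CPM in L1L2-FF and 153 to 382 CPM under the other label, and their part in the fall of *Pmp2* was not tested. *Fabp3* and *Fabp7* were at log2 fold changes of -0.48 and 1.13 and did not pass, and the median of the 5 genes was -0.32.

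Among 14 other uptake and trafficking genes, 1 was higher and 2 were lower (median log2 fold change -0.05). *Ffar4*, a receptor for long-chain fatty acids, fell from 12.1 ± 1.89 to 5.53 ± 0.997 CPM (log2 fold change -1.12, adjusted p = 0.00851). *Scp2*, a sterol and lipid carrier, fell from 867 ± 182 to 492 ± 73.7 CPM (adjusted p = 0.0286), and *Lyn*, a kinase of the SRC family, rose from 65.5 ± 4.04 to 91.7 ± 12.2 CPM (adjusted p = 0.0377). Of the 6 fits that each omit a library, *Scp2* missed the threshold in 5 (all but the one without L1L2-FF replicate 2) and *Lyn* in 5 (all but the one without L1L2-AKO replicate 3), and *Lyn* also missed it with library size alone and with upper-quartile factors. The caveolar genes *Cav1* (log2 fold change -0.34) and *Cavin1* (0.26) and the acyl-CoA binding protein *Dbi* (-0.06) did not pass.

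Of 9 nuclear receptors and C/EBP factors that act on these genes, 3 were lower (1 without L1L2-AKO replicate 2 or 3) and none higher (1 with DESeq2 size factors, with DESeq2's Wald test, with no filter or without L1L2-AKO replicate 1), with a median log2 fold change of -0.29. *Pparg*, the nuclear receptor that drives *Fabp4*, *Lpl*, *Cd36* and *Acsl1* in adipocytes, fell from 375 ± 11.4 to 249.8 ± 12.6 CPM (log2 fold change -0.59, adjusted p = 0.0122). Its call was lost without L1L2-FF replicate 1, L1L2-AKO replicate 2 or L1L2-AKO replicate 3. *Ppara* fell by 0.84 and *Rxrg* by 1.09 on the log2 scale (adjusted p = 0.0170 and 0.00493), and the call on *Ppara* was lost without L1L2-AKO replicate 2 or 3. *Cebpa* (log2 fold change -0.37, adjusted p = 0.211) and *Rxra* (0.01, adjusted p = 0.968) did not pass. *Cebpd* went the other way, from 19.6 ± 3.95 to 46.6 ± 21.7 CPM, and narrowly missed the threshold (log2 fold change 1.25, adjusted p = 0.0506). The groups overlapped: L1L2-AKO replicate 1, at 21.6 CPM, lay within the control range of 15.1 to 22.3, while replicates 2 and 3 of that label had 58.9 and 59.4 CPM.

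**Figure D4:**
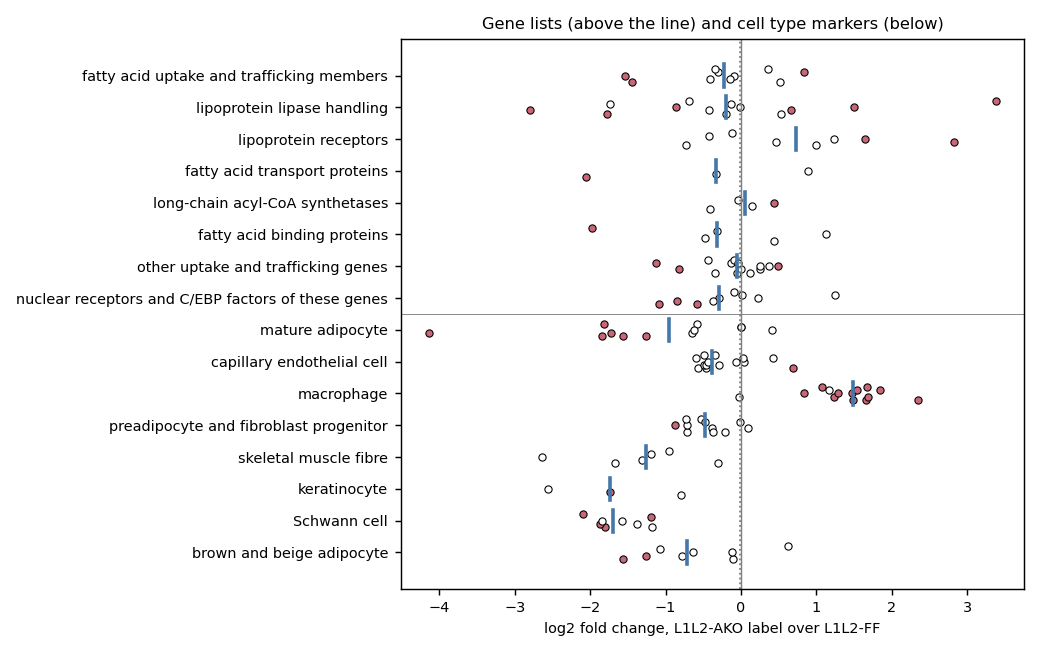
Log2 fold change of every tested gene, libraries labelled L1L2-AKO over L1L2-FF (horizontal axis), for the 10 genes and the 7 further lists above the grey line and 8 cell type marker lists below it, with filled points where the adjusted p-value was below 0.05, blue bars for list medians and a dotted line for the median of all tested genes. The 10 genes are centred near 0 (median -0.22), while the mature adipocyte markers have a median of -0.96 and the macrophage markers one of 1.48.

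The markers of other cells in the floated fraction are given as context for these values. The median log2 fold change was -0.96 over the 12 mature adipocyte markers, -0.39 over the 14 endothelial markers and 1.48 over the 14 macrophage markers. The adipocyte markers ran from *Cfd* at -4.14 to *Lep* at 0.41, which did not pass, with *Adipoq* at -1.26 and *Cidec* at -0.0061. Progenitor markers had 1 lower of 11 tested (median -0.48). That count was 4 without L1L2-FF replicate 3, 2 without L1L2-FF replicate 2, and 0 without L1L2-FF replicate 1, L1L2-AKO replicate 2 or L1L2-AKO replicate 3. Brown and beige adipocyte markers had 2 lower of 8 (median -0.71), and 1 without L1L2-AKO replicate 1 or 3. Keratinocyte markers had 1 lower of 3 (median -1.74), and 0 without L1L2-AKO replicate 2. Skeletal muscle markers had 0 called of 6 by edgeR and 3 lower by DESeq2 (median -1.25), with 1 lower without L1L2-FF replicate 3 and 2 lower without L1L2-AKO replicate 3, and their summed level was at most 22.2 CPM in any library. None of the marker genes was at 3 counts or fewer in all libraries.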

How the data were processed

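Floated adipocytes of 3 L1L2-FF and 3 L1L2-AKO pools were compared, with libraries assigned by their labels. The authors sequenced paired ends on a BGISEQ-500 and, per the methods and processing notes, used HISAT2 2.1.0 with mm10, SAMtools and StringTie 1.3.5. They deposited raw counts per gene symbol. The gene annotation, counting program and strand setting are not given in the sources used here, so the handling of overlapping genes and near-identical copies is unknown. The table has 37384 symbols, and 0 rows name no gene.

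Genes were kept by filterByExpr (minimum count 10, minimum total 15), leaving 15674, scaled by TMM and tested with edgeR 4.0.16 in R 4.3.3 (quasi-likelihood, two-sided, unpaired, Benjamini-Hochberg, adjusted p below 0.05). To obtain an SE, the size of each log2 fold change was divided by the root of its F statistic, and 95% intervals use a t distribution with 8.07 degrees of freedom. Positions and exon lengths are from GENCODE M21, to which 36961 symbols matched directly and 351 through a synonym, while 72 did not match. Ratios were tested by exact permutation (scipy 1.17.1). The alternatives were DESeq2 1.42.0 (size factors, Wald test), limma-voom (limma 3.58.1), library size alone, upper-quartile factors, the 20 most abundant genes left out of library sizes, no filter, at least 10 counts in every library, replicate number as a block, and each library left out in turn. The tests were checked on simulated counts.

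The genes, lists and tests were chosen with earlier results of these data known. Named are the 10 genes, *Lats1* and *Lats2*, and from each further list the 3 most abundant tested genes and those that passed with at least a 2-fold change. Of the genes this rule names, 1 is not reported here. *Acsl6*, *Scp2*, *Lyn*, *Ppara*, *Cebpd*, *Fabp9*, *Fabp12* and the single marker genes were named after their values were seen.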

Additional observations from a re-analysis of the deposited data

How the results depend on the processing

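With 3 pools per genotype, p-values rest on the spread between pools, and edgeR's estimate of that spread for a gene also draws on the other tested genes. *Acsl1* and *Slc27a1* were lower and past the threshold in all 15 alternatives, while *Angptl4* was higher in all 15 and missed the threshold in 5. The number of the 10 genes called higher was 0 to 1 with a library left out and 0 with replicate number as a block. The labels do not say whether replicate numbers pair the samples. Deviations of same-numbered libraries correlated at 0.188, 0.255 and -0.0544. Replicates 1 and 2 of L1L2-FF correlated best with the same-numbered library of the other label, and replicate 3 did not. So few libraries cannot decide whether the numbers mark pairs. The block gave 2514 calls over all genes against 2580 and changed the call of no other of the 10 genes. DESeq2's Wald test made 3500 calls over all genes, called 4 of the 10 genes, *Cd36* being the added one, and 11 genes of the further lists higher against 7. With a library left out, the further lists had 7 to 16 calls, with 3 to 8 higher and 3 to 10 lower. For *Lats2* the log2 fold change ranged from 0.55 to 0.78 in those fits, and 4 of 6 missed the threshold. Small changes turned sign with a library left out: *Gpihbp1* ranged from -0.32 to 0.14, *Fabp5* from -0.067 to 0.996, *Slc27a4* from -0.28 to 0.018, *Fabp3* from -1.08 to 0.167, *Rxra* from -0.081 to 0.066 and *Dbi* from -0.345 to 0.181. *Rxra* was at -0.016 with library size alone and -0.027 with upper-quartile factors, and *Dbi* at 0.026 with limma-voom and 0.025 with the block. For *Gpihbp1* against the endothelial markers, the log2 difference was 0.080 without division by exon length and ranged from -0.24 to 0.032 with a library left out. The cause was not tested. Of the other scalings, upper-quartile factors shifted the median over all genes the most (by -0.0349).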
